A study of Mus musculus with 8 samples.

Results

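The collagen genes were taken as every listed gene whose symbol has the form Col, a type number, a and a chain number. Of the 17700 genes in the count tables, 44 met this rule, and they are all of the 44 collagen genes that the GENCODE M21 annotation holds under such names. The 42 with a mean of 0.5 or more CPM (the count divided by the column sum, times 1000000) over the libraries were tested. The 44 were divided into 11 fibrillar, 8 basement membrane and 25 other collagens, and the untested genes, Col28a1 and Col22a1, were both in the last class. The rule itself used gene names and mean level only, but the members and classes were chosen with earlier results of these data known.

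The series measured total RNA, depleted of ribosomal RNA, in the cerebellum of 8 C57BL/6JN mice, 4 old and 4 young, with no other allele or agent in the labels. Old mice 1 to 4 were a male of 93 weeks, a female of 83 weeks, a male of 83 weeks and a female of 102 weeks. Young mice 1 to 4 were males of 19 weeks and 19 weeks, a female of 19 weeks and a female of 22 weeks. The sample labels name cerebellum, whereas the series' design text names liver and other age ranges, and the sample labels were followed. Depth was 6079485 to 7236720 counts per library, and 3 counts, the limit that a count of 0 allows, were worth 0.415 to 0.494 CPM.

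Collagens are extracellular proteins whose chains wind into a stiff helix and then assemble into fibrils, sheets or filaments. In the brain most collagen is made outside the neural tissue proper, by fibroblasts of the meninges and of the perivascular space and by endothelial and mural cells of vessels. Fibrillar collagens give the meninges and larger vessels tensile strength, type IV collagen forms the sheet of the vascular basement membrane, and several minor collagens are made by neurons or by the choroid plexus.

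Collagen messages were a small part of each library. They took 0.0296% of counts in young mouse 4 and 0.0472% in young mouse 3, the lowest and highest of the 8, and 43 or 44 of the 44 genes had a count in each. Col28a1 had 3, 0, 3 and 1 counts in old mice 1 to 4 and 2, 6, 0 and 1 in young mice 1 to 4. Col22a1 had 3, 2, 0 and 4 counts against 1, 3, 1 and 0. At this depth no difference in either could be detected. Per kilobase of exon, the highest mean levels were those of Col9a3 at 6.94, Col18a1 at 5.67, Col9a2 at 5.26, Col8a2 at 4.30 and Col1a1 at 4.01 CPM per kb. Col22a1 was lowest at 0.0301 CPM per kb.

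The cells named for these genes were represented in every library. All 16 meningeal fibroblast markers, all 14 endothelial markers and all 12 mural cell markers had counts in all 8. The meningeal markers summed to 202.6 to 313.4 CPM in old mice and 128.9 to 323.7 CPM in young mice, with Fn1, Islr and Slc6a20a the most abundant. Endothelial markers, led by Flt1, Slc2a1 and Cldn5, summed to 319.0 to 469.0 CPM in old and 270.1 to 341.0 CPM in young mice. Mural markers, led by Rgs5, Vtn and Notch3, summed to 265.5 to 345.6 and 247.5 to 318.9 CPM. In bulk tissue, fewer cells of a type and less RNA per cell cannot be told apart, and which cells the collagen counts came from was not measured.

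No collagen gene passed the test for age. In edgeR's quasi-likelihood test with age and sex as terms, 0 of 42 collagens reached an adjusted p of 0.05, beside 28 of 15088 genes tested (0.186%), of which 24 were higher (0.159%) and 4 lower (0.0265%) in old mice. DESeq2 also called 0 collagens, beside 0.802% of all genes, and limma-voom called 0, beside 0.00663%. At an unadjusted p under 0.05, edgeR gave 5 of 42 collagens (11.9%) and 11.1% of all genes, so the collagens' share was near the background. Of these 5, Col4a3, Col10a1 and Col4a4 had positive differences (7.14%, beside 5.6% of all genes) and Col23a1 and Col3a1 negative ones (4.76%, beside 5.52%). Of the 42, 25 had a positive and 17 a negative log2 fold change (old minus young), with a median of 0.10, beside 49.8% positive and a median of 0.00 over all genes tested.

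**Figure D1:**
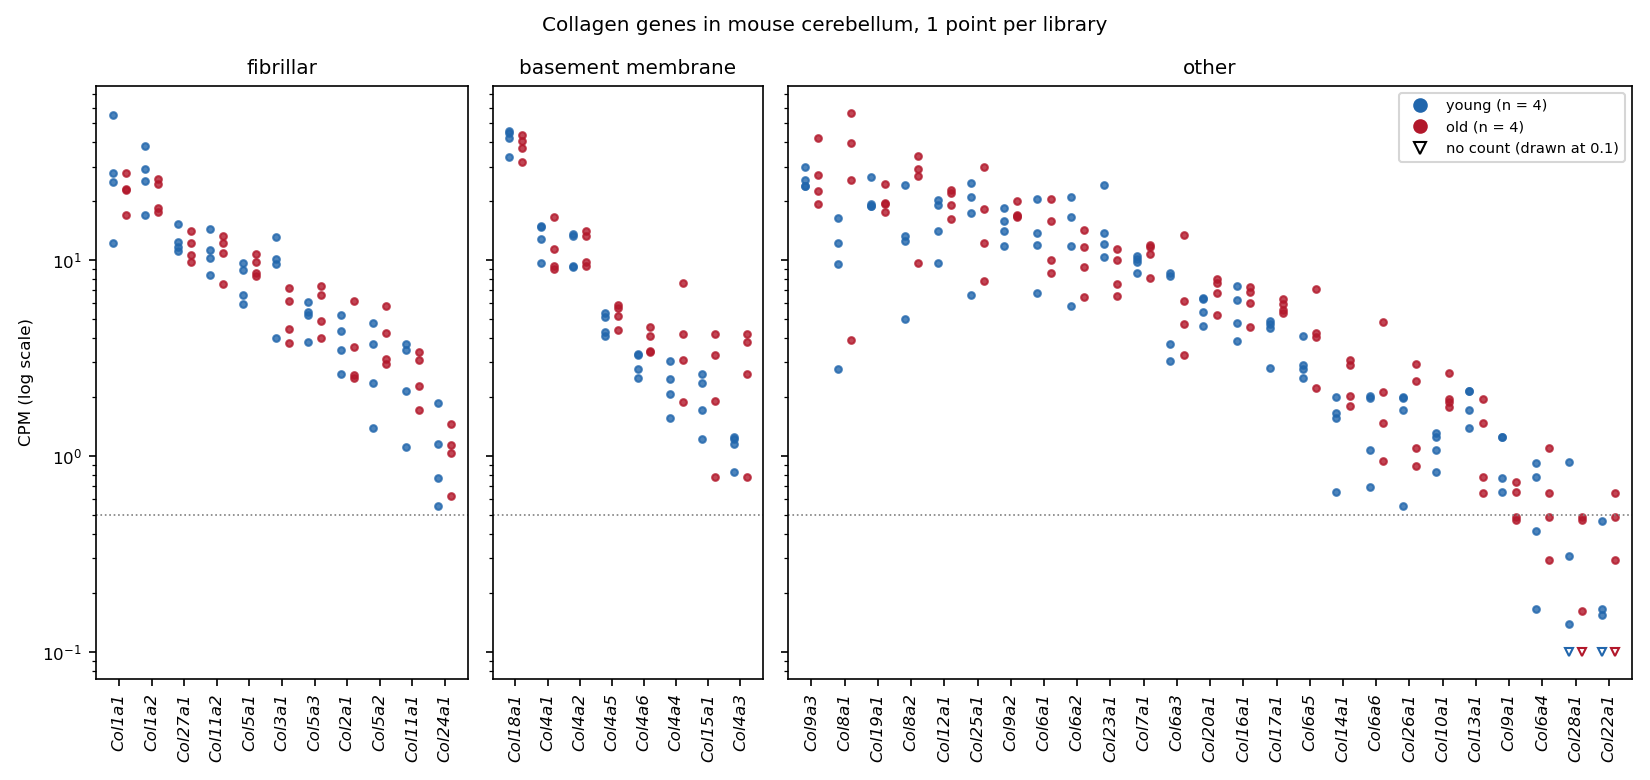
CPM on a log scale for each of the 44 collagen genes, 1 point per library, young in blue and old in red, in 3 panels by class and ordered by mean level. Open triangles at the bottom mark libraries with no count, the dotted line is the 0.5 CPM minimum for testing, and old and young points overlap for all but 3 of the 42 tested genes.

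Among fibrillar collagens, 3 of 11 had positive and 8 negative age differences, with a median log2 fold change of -0.05. With 1 library left out the median ran from -0.23 to 0.11, and it was positive without old mouse 3, young mouse 2 or young mouse 3. The class summed to 109, 92.4, 81.5 and 112 CPM in old mice 1 to 4 and to 106, 120, 158 and 71.0 CPM in young mice 1 to 4. Old mice averaged 98.8 ± 14.4 CPM (SD, n = 4) and young mice 114 ± 36.2 CPM (SD, n = 4), a ratio of 0.868. The log2 of this ratio ran from -0.37 without young mouse 4 to -0.0014 without young mouse 3. The old values lay inside the young range, which ran from young mouse 4 at the bottom to young mouse 3 at the top.

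Col1a1 and Col1a2 encode the chains of type I collagen, the main fibril of connective tissue. Col1a1 was at 27.9, 22.8, 17.0 and 23.0 CPM in old mice 1 to 4 and at 25.0, 27.8, 54.9 and 12.2 CPM in young mice 1 to 4. Its log2 fold change was -0.43 ± 0.45 (SE; edgeR adjusted p = 0.777), and without young mouse 3 it was 0.14. Young mice 3 and 4 held the highest and the lowest value, so the old range fell within the young one. Col1a2 was at 24.5, 18.4, 17.7 and 25.9 CPM in old and 25.2, 29.2, 38.2 and 17.0 CPM in young mice. Its log2 fold change was -0.38 ± 0.24 (SE; edgeR adjusted p = 0.612), with the same libraries at the extremes, and it was -0.12 without young mouse 3 and -0.60 without young mouse 4.

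Col3a1 encodes the type III chain, which forms thin fibrils together with type I in vessel walls and meninges. It was at 7.18, 4.42, 3.75 and 6.14 CPM in old mice 1 to 4 and at 10.1, 9.51, 13.2 and 4.01 CPM in young mice 1 to 4. Its log2 fold change was -0.80 ± 0.35 (SE; edgeR adjusted p = 0.439), and -0.46 without young mouse 3. Young mice 1, 2 and 3 lay above all 4 old mice, and young mouse 4 lay among them. Col3a1 lies on chromosome 1 at 45311538-45349706 (GRCm38, plus strand), and its upstream stretch is shown because this gene had the largest negative difference of the fibrillar class. The stretch, from RefSeq (GRCm38.p6), is chr1:45311288-45311537, plus strand, ending at the base before the annotated start. Capitals mark the motif TATAAA, whose first base lies 117 bases upstream of the start.
Col3a1: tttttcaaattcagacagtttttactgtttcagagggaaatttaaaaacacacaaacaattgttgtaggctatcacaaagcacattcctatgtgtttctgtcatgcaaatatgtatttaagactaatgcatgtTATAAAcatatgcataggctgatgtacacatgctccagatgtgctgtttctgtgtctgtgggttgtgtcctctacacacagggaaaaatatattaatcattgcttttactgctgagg

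Of the motifs searched on both strands in the 250 bases before the start, TATAAA occurred in 12.4% of 32851 RefSeq promoters, GGGCGG (the GC box) in 32.7%, CCAAT in 33.8% and TAATCC in 6.25%. Of the 35 collagen genes with a promoter among these, each taken with its first promoter only, 5 held TATAAA, 21 GGGCGG, 12 CCAAT and 0 TAATCC. The shares are over promoters and these counts over genes, so they do not have the same base. These matches are letters in a window, and binding was not measured.

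Col27a1, a fibrillar collagen of cartilage, was at 9.78, 12.2, 10.6 and 14.1 CPM in old and 15.2, 11.1, 12.3 and 11.6 CPM in young mice. Col11a2, a chain of type XI collagen, was at 12.2, 10.9, 7.50 and 13.3 CPM in old and 10.3, 14.3, 11.2 and 8.43 CPM in young mice. For both the ages overlapped, with log2 fold changes of -0.15 ± 0.16 and -0.05 ± 0.21 (SE). The positive differences of the class belonged to the type V chains, which regulate fibril width: 0.36 ± 0.35 for Col5a2, 0.23 ± 0.19 for Col5a1 and 0.10 ± 0.25 for Col5a3 (SE). Col2a1, the cartilage fibril chain, had -0.12 ± 0.25, Col24a1 -0.05 ± 0.46 and Col11a1 -0.01 ± 0.38 (SE).

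Among basement membrane collagens, 5 of 8 had positive and 3 negative differences, with a median log2 fold change of 0.20. The class summed to 75.8, 77.8, 73.4 and 93.0 CPM in old mice 1 to 4 and to 82.2, 74.4, 81.9 and 77.2 CPM in young mice 1 to 4. The means were 80.0 ± 8.83 and 78.9 ± 3.80 CPM (SD, n = 4 each), a ratio of 1.01, and the ages overlapped.

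Col18a1, whose protein carries endostatin at its end and sits in vascular and epithelial basement membranes, was the most abundant collagen by CPM. It was at 31.5, 37.1, 43.4 and 40.4 CPM in old and 44.5, 33.7, 42.1 and 45.5 CPM in young mice, with a log2 fold change of -0.16 ± 0.13 (SE; edgeR adjusted p = 0.674). Young mouse 4 and old mouse 3, whose libraries held the lowest shares of collagen counts (0.0296% and 0.0326%), were among the 3 highest for this gene.

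Col4a1 and Col4a2 encode the chains of the common vascular type IV network, and lie head to head on chromosome 8 with overlapping starts. Col4a1 was at 11.4, 8.99, 9.37 and 16.5 CPM in old and 14.7, 15.0, 12.8 and 9.67 CPM in young mice. Col4a2 was at 14.0, 9.73, 9.37 and 13.3 CPM in old and 9.36, 13.6, 13.3 and 9.26 CPM in young mice. Neither separated the ages, with log2 fold changes of -0.21 ± 0.22 and -0.01 ± 0.20 (SE). Their exons share 22 bases on opposite strands, and the strand setting of the counting is not given in the sources used here.

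Col4a3 and Col4a4, chains of the type IV network best known from kidney, inner ear and eye, had the class's highest positive differences. Col4a3 had 16, 26, 5 and 26 counts in old mice 1 to 4 and 8, 8, 7 and 6 counts in young mice 1 to 4, or 2.61, 3.83, 0.781 and 4.20 CPM against 1.23, 1.25, 1.15 and 0.829 CPM. Its log2 fold change was 1.30 ± 0.42 (SE; edgeR adjusted p = 0.269), the smallest p of any collagen. Old mice 1, 2 and 4 lay above every young mouse and old mouse 3 below. Exons of Col4a3 share 563 bases (5.6% of its exon length) with the transcript C430014B12Rik on the opposite strand. As the strand setting is not given, its counts may hold reads of that gene. Col4a4 was at 3.10, 7.66, 1.87 and 4.20 CPM in old and 3.07, 1.56, 2.47 and 2.07 CPM in young mice. The log2 fold change of this gene was 0.82 ± 0.36 (SE; edgeR adjusted p = 0.43), with old mouse 2 highest and old mouse 3 within the young range. Without old mouse 2 it was 0.43. The genes lie head to head on chromosome 1 with starts 72 bases apart, Col4a4 on the minus strand at 82448423-82586849 and Col4a3 on the plus strand at 82586921-82722059.

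Choroid plexus markers varied across the same libraries. Their 12 genes summed to 568.5, 1068.0, 52.8 and 423.2 CPM in old mice 1 to 4 and 496.6, 320.9, 60.0 and 39.9 CPM in young mice 1 to 4, so old mouse 3 and young mice 3 and 4 stood far below the rest. All 12 had positive age differences, with a median log2 fold change of 1.19, and Aqp1 had no count in young mouse 4. With a score of these markers as a covariate (the median, over marker genes, of the deviation of log2 CPM from each gene's mean), Col4a3 was at 0.71 ± 0.42 and Col4a4 at 0.28 ± 0.35 (SE). That model called 0 of 42 collagens and 0 of all genes, with edgeR adjusted p = 0.644 for Col4a3 and 0.844 for Col4a4. The part of choroid plexus in the difference between ages was not tested beyond this.

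The other type IV chains were Col4a5 and Col4a6, head to head on chromosome X with starts 1309 bases apart. Col4a6 was at 4.08, 3.39, 3.44 and 4.53 CPM in old and 2.76, 2.49, 3.29 and 3.32 CPM in young mice. All 4 old values lay above all 4 young values, by a narrow margin, and the log2 fold change was 0.33 ± 0.23 (SE; edgeR adjusted p = 0.642). Col4a5 was at 5.87, 5.16, 4.37 and 5.66 CPM in old and 5.37, 5.15, 4.11 and 4.28 CPM in young mice, where the ages overlapped. It had a log2 fold change of 0.11 ± 0.20, and Col15a1, a vascular basement membrane collagen, had 0.29 ± 0.40 (SE).

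Of the other collagens 23 were tested, and 17 had positive and 6 negative age differences, with a median log2 fold change of 0.18. The class summed to 268, 274, 171 and 263 CPM in old mice 1 to 4 and to 211, 228, 232 and 147 CPM in young mice 1 to 4. The means were 244 ± 48.8 and 205 ± 39.3 CPM (SD, n = 4 each), a ratio of 1.19. Old mice 1, 2 and 4 were above every young mouse and old mouse 3 was below all but young mouse 4, the same placement as for the type VIII chains within this class.

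Type VIII collagen is a short chain collagen that forms hexagonal sheets, best known from the cornea and from vessel walls, and Col8a1 and Col8a2 encode its chains. Col8a1 had 157, 382, 25 and 244 counts in old mice 1 to 4 and 107, 78, 58 and 20 counts in young mice 1 to 4, or 25.6, 56.3, 3.91 and 39.5 CPM against 16.4, 12.2, 9.54 and 2.76 CPM. On the log2 scale it differed by 1.47 ± 0.82 (SE; edgeR adjusted p = 0.582), the largest of the 42, and by 0.91 without young mouse 4. Old mice 1, 2 and 4 lay above all young mice, and old mouse 3 lay below all but young mouse 4. Col8a2 was at 26.7, 33.9, 9.68 and 29.1 CPM in old and 24.2, 13.3, 12.5 and 4.97 CPM in young mice. The estimated log2 fold change was 0.82 ± 0.54 (SE; edgeR adjusted p = 0.632), 0.43 without young mouse 4 and 1.28 without young mouse 1. Old mouse 3 and young mouse 4 were lowest for this gene as well.

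The upstream stretches of both genes are shown because the chains belong to the same collagen type and were lowest in the same libraries. They are chr16:57754738-57754987 on the minus strand for Col8a1 and chr4:126286544-126286792 on the plus strand for Col8a2, from RefSeq (GRCm38.p6). Each is written 5′ to 3′ along the gene, and the Col8a2 stretch leaves out the last base before the RefSeq start, where a GENCODE exon begins. Capitals mark GGGCGG or its reverse complement CCGCCC.
Col8a1: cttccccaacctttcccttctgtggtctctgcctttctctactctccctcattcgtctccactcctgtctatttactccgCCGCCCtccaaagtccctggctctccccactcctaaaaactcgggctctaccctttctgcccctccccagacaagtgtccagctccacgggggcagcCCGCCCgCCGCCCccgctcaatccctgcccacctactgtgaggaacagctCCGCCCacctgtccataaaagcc
Col8a2: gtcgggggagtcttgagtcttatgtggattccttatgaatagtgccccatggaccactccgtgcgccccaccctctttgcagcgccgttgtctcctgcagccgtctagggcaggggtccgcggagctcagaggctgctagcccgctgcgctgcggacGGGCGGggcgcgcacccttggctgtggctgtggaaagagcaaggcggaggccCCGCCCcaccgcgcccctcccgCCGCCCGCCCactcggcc

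Each stretch held 4 matches, at 170, 73, 66 and 23 bases upstream of the start in Col8a1 and at 93, 41, 19 and 15 bases upstream in Col8a2, where the last 2 matches overlap. G and C made up 60.8% and 69.9% of the bases, against 35.2% for the Col3a1 stretch. Neither TATAAA nor TAATCC was in either window.

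Both type VIII chains were lowest in the libraries with the least choroid plexus RNA. Ttr, the transthyretin message that dominates choroid plexus epithelium, was at 211, 432, 1.56 and 153 CPM in old mice 1 to 4 and at 199, 150, 5.26 and 2.35 CPM in young mice 1 to 4. Old mouse 3 and young mice 3 and 4 had the 3 lowest values of Ttr, of Col8a1 and of Col8a2. The libraries fell into separate clusters of Ttr level, so no correlation over the 8 is given. In the model that holds the choroid plexus score, the log2 fold change of Col8a1 was 0.38 ± 0.29 and that of Col8a2 0.28 ± 0.25 (SE; edgeR adjusted p = 0.739 and 0.779). Without old mice 2 and 3 and young mouse 4, the libraries with the highest liver transcripts, Col8a1 was at 1.26 ± 0.23 (SE; edgeR adjusted p = 0.0131) and was the sole collagen of 42 called, beside 181 of 15148 genes (1.19%). That comparison set old mice 1 and 4, with 211 and 153 CPM of Ttr, against young mice 1, 2 and 3, with 199, 150 and 5.26 CPM.

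**Figure D2:**
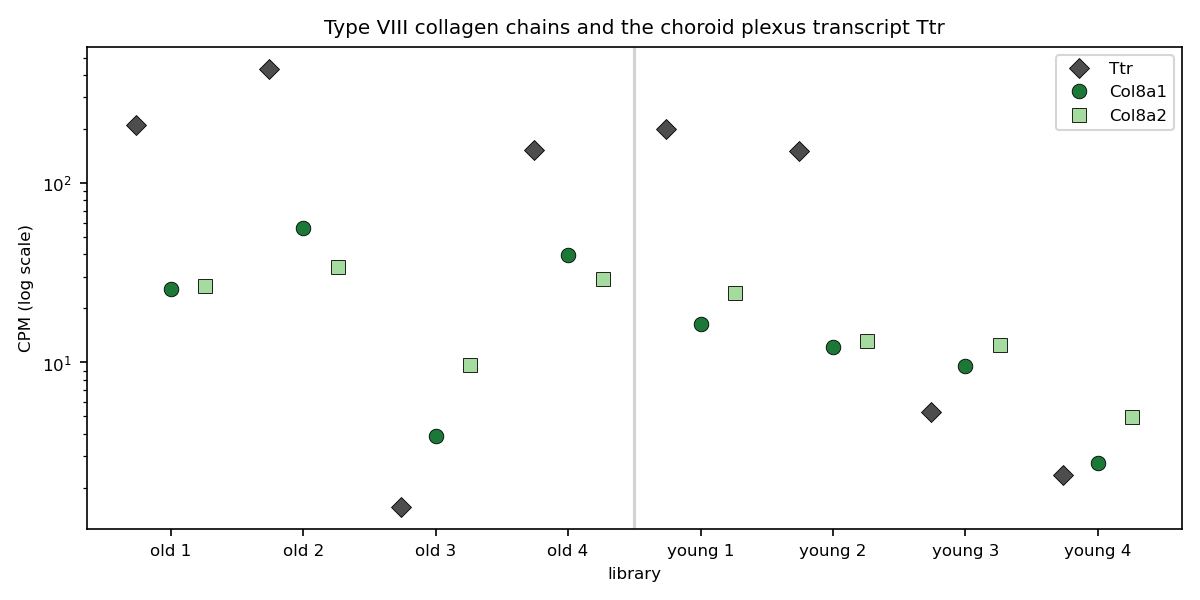
CPM on a log scale of Ttr (diamonds), Col8a1 (circles) and Col8a2 (squares) in each of the 8 libraries, old on the left of the grey line and young on the right. Old mouse 3 and young mice 3 and 4 are lowest for all 3 genes, with Ttr at 1.56, 5.26 and 2.35 CPM.

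Liver transcripts differed between libraries too. The 10 liver markers summed to 90.1 CPM in old mouse 2, 25.1 CPM in old mouse 3 and 22.2 CPM in young mouse 4, and to 1.2 to 11.7 CPM in the others. Alb, Apob and Apoa1 were the most abundant, Alb had no count in young mice 2 and 3, and 8 of the 10 had no count in at least 1 library. All 8 that were tested had positive age differences, with a median log2 fold change of 2.02, and 0 were called. Their part in any collagen's difference was not tested beyond leaving out these 3 libraries.

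Col10a1 encodes type X collagen, a hexagonal sheet collagen of growth plate cartilage. It had 12, 18, 12 and 11 counts in old mice and 7, 8, 8 and 6 counts in young mice, or 1.96, 2.65, 1.87 and 1.78 CPM against 1.07, 1.25, 1.32 and 0.829 CPM. All 4 old values exceeded all 4 young values, and the log2 fold change was 0.85 ± 0.33 (SE; edgeR adjusted p = 0.359). Its exons share 18 bases (0.6% of their length) with the protein-coding gene Nt5dc1 on the opposite strand, and the strand setting is not given. Of 7 other bone and cartilage markers in the tables, led by Acan, Comp and Ucma, 6 were tested and 0 called, with 5 positive differences and a median of 0.15. Ibsp, the bone matrix marker, had no count in some libraries.

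Altogether 3 of 42 collagens (7.14%) had all old CPM values above all young ones, namely Col10a1, Col4a6 and Col17a1, beside 4.56% of all genes tested. In the opposite direction there were 0 of 42, beside 1.76%. Col17a1, the transmembrane collagen of epithelial anchoring junctions, was at 5.54, 6.34, 5.94 and 5.34 CPM in old and 4.91, 4.52, 2.80 and 4.70 CPM in young mice. Between the ages its log2 fold change was 0.40 ± 0.21 (SE; edgeR adjusted p = 0.529), and 0.26 without young mouse 3.

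The other transmembrane collagens had negative differences. Col23a1, whose ectodomain can be shed from the cell surface, was at 9.95, 7.52, 6.56 and 11.3 CPM in old mice and 12.1, 13.7, 24.2 and 10.4 CPM in young mice. The log2 fold change of this gene was -0.81 ± 0.28 (SE; edgeR adjusted p = 0.318), with only old mouse 4 above the lowest young mouse, and it was -0.48 without young mouse 3. Col13a1, found at neuromuscular junctions, had -0.63 ± 0.39 (-0.42 without old mouse 3), and Col25a1, a neuronal collagen whose fragment collects in amyloid plaques, had -0.06 ± 0.48 (SE).

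The collagens that bind to the surface of fibrils (FACIT collagens) numbered 9, of which 8 were tested, 6 with positive and 2 with negative differences. Col9a3, a chain of type IX collagen, was at 22.5, 42.2, 19.2 and 27.0 CPM in old and 29.8, 25.7, 23.9 and 23.8 CPM in young mice, with a log2 fold change of 0.04 ± 0.20 (SE). Old mouse 2 was highest and the ages overlapped. Exons of Col9a3 share 234 bases with Tcfl5 on the opposite strand, so its counts may hold reads of that gene. Col19a1, which is made by subsets of neurons in the brain, was at 17.6, 24.3, 19.5 and 19.4 CPM in old and 18.9, 19.3, 18.8 and 26.5 CPM in young mice, with a log2 fold change of -0.09 ± 0.13 (SE). Old mouse 2 and young mouse 4 lay above the other 6 libraries.

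Col14a1, which binds type I fibrils, was at 1.79, 3.10, 2.03 and 2.91 CPM in old and 1.99, 1.56, 0.658 and 1.66 CPM in young mice. On the log2 scale it differed by 0.68 ± 0.35 (SE; edgeR adjusted p = 0.51), and old mouse 1 lay within the young range. Without young mouse 3 the difference was 0.41. Col9a1, another type IX chain, was at 0.652, 0.737, 0.469 and 0.485 CPM in old and 0.767, 1.25, 0.658 and 1.24 CPM in young mice. That is 3 to 5 counts in each old and 4 to 9 in each young library, with a log2 fold change of -0.78 ± 0.44 (SE; edgeR adjusted p = 0.554). The remaining tested FACIT chains had log2 fold changes of 0.31 ± 0.20 for Col12a1, 0.23 ± 0.20 for Col20a1, 0.19 ± 0.14 for Col9a2 and 0.12 ± 0.25 for Col16a1 (SE).

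Type VI collagen forms beaded filaments around cells of connective tissue. Its chains had log2 fold changes of 0.65 ± 0.52 (Col6a6), 0.47 ± 0.34 (Col6a5), 0.18 ± 0.49 (Col6a3), 0.10 ± 0.51 (Col6a4), 0.01 ± 0.38 (Col6a1) and -0.45 ± 0.39 (Col6a2, all SE). Col7a1, the anchoring fibril collagen of skin, had 0.08 ± 0.16 and Col26a1 had 0.20 ± 0.46 (SE).

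**Figure D3:**
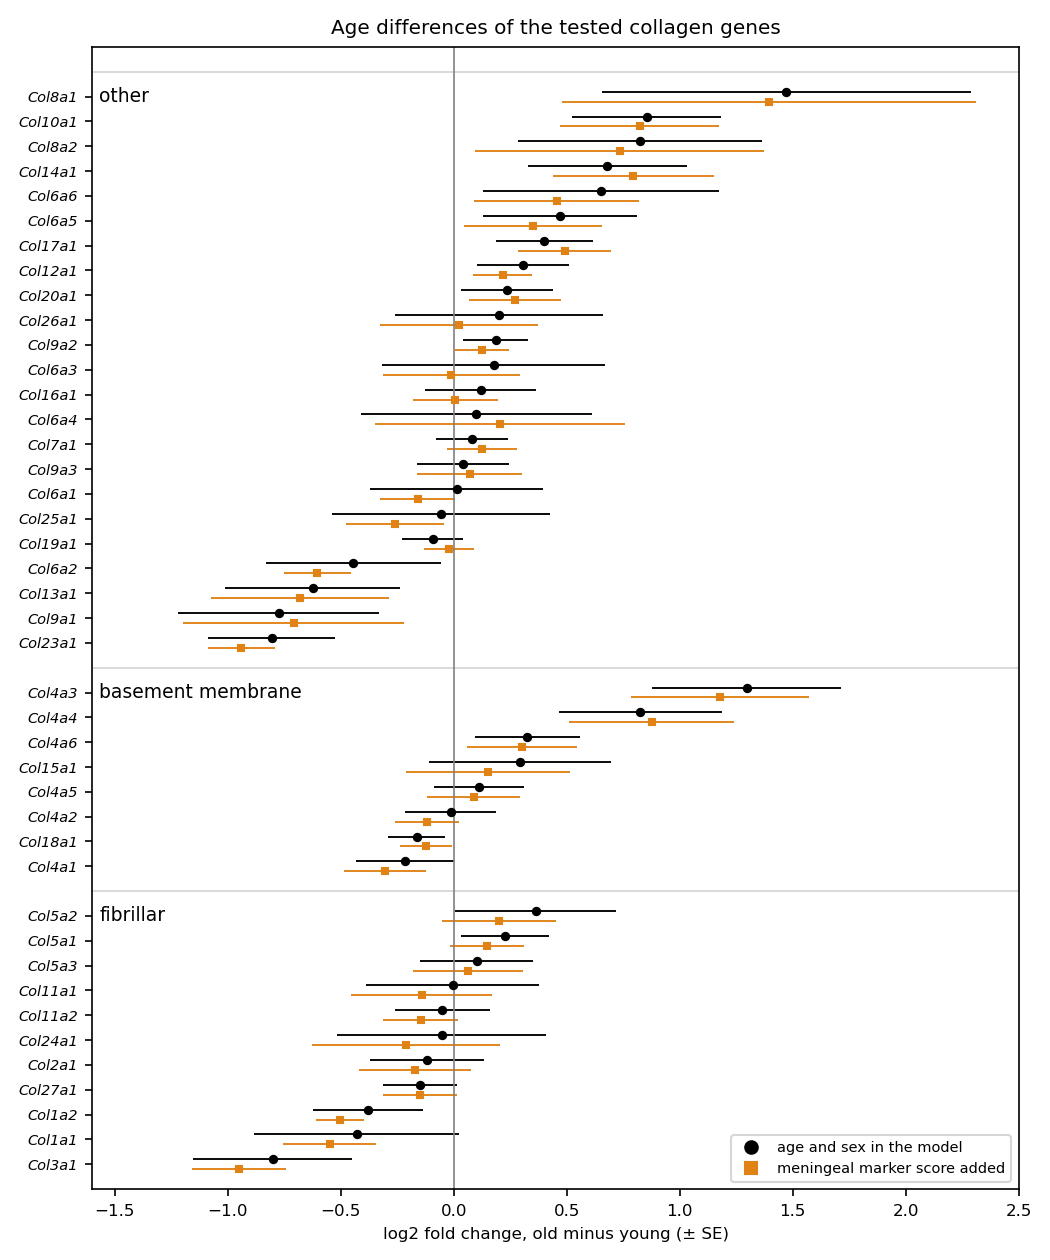
Log2 fold changes (old minus young, horizontal axis) with standard errors for the 42 tested collagens, by class, from the model with age and sex (black circles) and with the meningeal marker score added (orange squares). Col8a1 and Col4a3 are the farthest right, at 1.47 and 1.30, and Col23a1 and Col3a1 the farthest left, at -0.81 and -0.80; none passed an adjusted p of 0.05 without the score.

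Meningeal RNA varied between libraries, and the collagens were set against it. The meningeal score was 0.40, -0.18, -0.15 and 0.36 in old mice 1 to 4 and -0.28, 0.31, 0.48 and -0.81 in young mice 1 to 4, on a log2 scale. Of the 16 markers, 13 had positive age differences, with a median of 0.16, and the test for age called 0 of them. Correlations of log2 CPM with this score were computed for the 42 collagens over the 8 libraries, by exact two-sided permutation. Col6a1, a type VI chain, had 126, 58, 64 and 98 counts in old and 78, 88, 125 and 49 counts in young mice, high where the score was high and lowest in young mouse 4. It had r = 0.91 (permutation p = 0.00102, adjusted over the 42 relations 0.0428) and rho = 0.93 (permutation p = 0.00223, adjusted 0.0937). Leaving out young mice 4 and 3, the libraries farthest from the median score, r was 0.82. No other collagen passed the adjustment for r, and none passed it for rho. Several came close, so Col6a1 was not set apart. Col16a1 also had r = 0.91 (permutation p = 0.00278, adjusted 0.0553). Col4a2 at r = 0.89, Col12a1 at r = 0.85 and, in the opposite direction, Col19a1 at r = -0.81 were among those with the same adjusted permutation p of 0.0553.

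A comparison listed as an alternative adds the meningeal score to the model of age and sex. It asks how collagens differ between ages at a given value of that score, and meningeal content itself was not measured. It called 3 of 42 collagens, all lower in old mice, beside 151 of 15088 genes (1.0%) and 60 of them lower (0.398%). They were Col23a1 at -0.94 ± 0.15 (SE; edgeR adjusted p = 0.0124), Col1a2 at -0.50 ± 0.11 (SE; adjusted p = 0.0417) and Col3a1 at -0.95 ± 0.21 (SE; adjusted p = 0.0477). Col6a2 was at -0.60 ± 0.15 (SE; edgeR adjusted p = 0.0665) and Col1a1 at -0.55 ± 0.21 (SE; adjusted p = 0.267). Among fibrillar collagens 3 were positive and 8 negative in this model, with a median of -0.15, and among basement membrane collagens 5 were positive and 3 negative.

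Markers of other cell types were also called in the same model: 4 of 8 tested liver markers (Fga, Apob, Alb and Ahsg) were called higher in old mice, with a median log2 fold change of 4.37 over the 8. Of 6 oligodendrocyte precursor markers 1 was called, Gpr17, at -0.87 ± 0.11 (SE; edgeR adjusted p = 0.00428). Over the 6 precursor markers 2 were positive and 4 negative, with a median of -0.06. The next most negative after Gpr17 was Cspg4, at -0.17 ± 0.12 (SE). The part of the liver and precursor markers in the collagen calls was not tested.

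The calls of this model were not stable. DESeq2 (beside 1.15% of all genes), limma-voom (beside 0.716%) and a fit with no term for sex (beside 71 genes) each called 1 collagen, Col23a1. Leaving out each library in turn gave 0 to 5. Without young mouse 1 and without young mouse 3 there were 0, beside 27 and 30 called over all genes. Without old mouse 3 there were 5, beside 447 over all genes. The differences themselves stayed negative in each of these fits, from -1.07 to -0.78 for Col23a1, from -0.58 to -0.43 for Col1a2 and from -1.16 to -0.79 for Col3a1 when libraries were left out. In those fits Col23a1 lost its call without young mouse 1 (edgeR adjusted p = 0.0512) and without young mouse 3 (0.152) only. Col1a2 kept its call only without old mouse 3, and Col3a1 only without old mouse 3 or without young mouse 4. Of the 10 granule neuron markers, led by Fat2, Cbln3 and Zic1, 9 had negative age differences. Their score ran from -0.35 to 0.11 in old and from -0.21 to 0.40 in young mice. It was opposite in sign to the meningeal score in every library but old mouse 2. A fit that holds it is therefore no separate support for the calls above. With a granule neuron score in place of the meningeal one, a fit chosen after the data were seen, Col23a1 was at -1.08 ± 0.22 (SE; edgeR adjusted p = 0.0312), the sole collagen called beside 0.968% of all genes.

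Set against the summed CPM of the meningeal markers, a ratio also chosen after the data were seen, Col3a1 was at 0.0185 to 0.0231 in old and 0.0311 to 0.0540 in young mice. Col1a2 was at 0.0786 to 0.0871 in old and 0.102 to 0.134 in young mice, and Col23a1 at 0.0320 to 0.0361 and 0.0478 to 0.0804. For these 3 of the 42 collagens (7.14%) all old ratios lay below all young ones, beside 0.305% of all genes tested. They are the genes that the model above had called on the same libraries and score markers, so the ratio describes that result and is no independent support. All old ratios lay above all young ones for 0 of 42, beside 0.683%, and for the other collagens and for the sum of the fibrillar ones the ages overlapped.

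**Figure D4:**
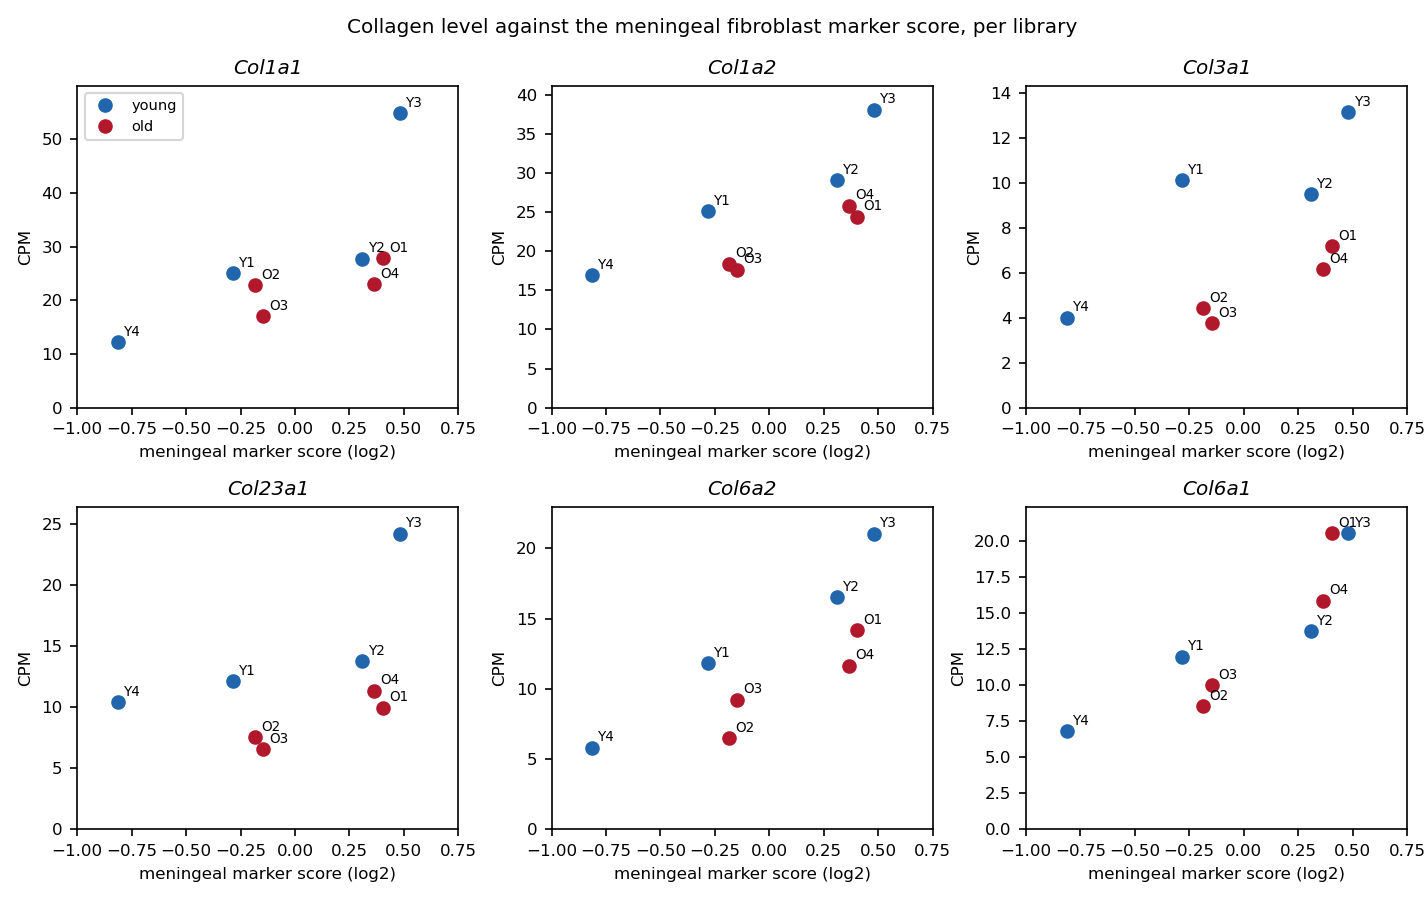
CPM of 6 collagens (vertical axes) against the meningeal fibroblast marker score (horizontal axes, log2) in the 8 libraries, young in blue and old in red. For Col3a1, Col1a2 and Col23a1 the old points lie below young points of a like score, while for Col6a1 old and young points intermingle along the rise with the score.

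No collagen passed the test for sex. By edgeR the count was 0 of 42, beside 0.0398% of all genes, and 1 (2.38%) had an unadjusted p under 0.05, beside 4.84% of all genes. DESeq2 and limma-voom also called 0 collagens for sex, beside 0.0597% and 0.0265% of all genes. The gene with the unadjusted p was Col2a1, with a female minus male log2 fold change of -0.81 ± 0.26 (SE; edgeR adjusted p = 0.935). The interaction of age and sex, from groups of 2 mice, called 0 of 15088 genes by edgeR and 1 by DESeq2, and 0 collagens by either. At an unadjusted p under 0.05 edgeR gave 2 collagens (4.76%), Col9a3 and Col8a2, beside 2.35% of all genes. Their interaction terms were 0.92 ± 0.30 and 1.90 ± 0.79 (SE). Choroid plexus markers summed to 1068.0 and 423.2 CPM in old females and to 568.5 and 52.8 CPM in old males. The sums were 60.0 and 39.9 CPM in young females and 496.6 and 320.9 CPM in young males. The part of choroid plexus in these terms was not tested.

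Genes that make, bind or degrade collagen were examined beside the collagens, and none of these lists held a gene past the threshold for age. Of 30 tested genes for collagen synthesis and crosslinking, 15 were positive and 15 negative, with a median log2 fold change of 0.02. Mia3, which loads procollagen into vesicles, had -0.24 ± 0.08, and the crosslinking oxidases Loxl2, Lox and Loxl4 had 0.71 ± 0.32, 0.59 ± 0.27 and 0.56 ± 0.28 (SE).

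Of 10 tested collagen receptors 5 were positive and 5 negative, with a median of 0.01. Lair1, an inhibitory collagen receptor of immune cells, was at 15.7, 17.2, 15.5 and 19.1 CPM in old and 8.28, 11.1, 12.0 and 11.2 CPM in young mice. Every old value exceeded every young value, and the log2 fold change was 0.62 ± 0.14 (SE; edgeR adjusted p = 0.122). Ddr1, Itga2 and Itga10, receptors of collagen on other cells, had -0.15 ± 0.10, 0.34 ± 0.26 and 0.27 ± 0.21 (SE).

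The list for collagen breakdown pools proteases with metalloproteinase inhibitors (Timp1, Timp2, Timp3 and Timp4). Of its 12 tested genes 5 were positive and 7 negative, with a median of -0.17, which gives no direction of breakdown. Mmp16, a membrane metalloproteinase, had -0.30 ± 0.11 and Timp3, a metalloproteinase inhibitor, had 0.31 ± 0.13, while Timp4 and Mmp24 had -0.17 ± 0.10 and -0.23 ± 0.14 (SE).

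Of 15 laminins, nidogens and basement membrane proteoglycans 10 were positive and 5 negative, with a median of 0.02. Lama5, the laminin chain of mature vessels, was at 24.5, 25.9, 16.2 and 23.9 CPM in old and 17.3, 14.7, 12.8 and 10.9 CPM in young mice. The estimated log2 fold change was 0.66 ± 0.18 (SE; edgeR adjusted p = 0.2), with old mouse 3 below young mouse 1. Hspg2, the proteoglycan perlecan, had 0.35 ± 0.23 and Nid1, the linker nidogen, had -0.28 ± 0.25 (SE).

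Of 8 tested small proteoglycans that coat collagen fibrils 7 were positive and 1 negative, with a median of 0.21. Dcn, the fibril-binding decorin, averaged 23.3 ± 5.35 CPM in old and 15.3 ± 4.03 CPM in young mice (SD, n = 4 each), with a log2 fold change of 0.56 ± 0.20 (SE; edgeR adjusted p = 0.334). Lum and Bgn had 0.49 ± 0.19 and 0.62 ± 0.28, and Aspn had -0.65 ± 0.38 (SE). Dcn and Lum are also meningeal markers of the score above. Of 12 genes that carry TGF-beta signals, which raise collagen transcription, 7 were positive and 5 negative, with a median of 0.13. Tgfbr1 and Tgfbr2, its receptors, had 0.51 ± 0.19 and 0.49 ± 0.25, Tgfb1 had 0.46 ± 0.26, and Ltbp1, which tethers the latent ligand, had -0.67 ± 0.27 (SE).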

How the data were processed

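RNA of frozen cerebellum was converted to total RNA libraries after ribosomal depletion, per the labels' protocols. The authors deposited 1 table of raw counts per gene for each library, per the file headers. Among the tools in the submitters' processing notes are the aligner STAR 2.7.5b and the read counter featureCounts, with GRCm38 given as a build. Which annotation and strand setting were used is not given in the sources used here. A spreadsheet had turned 24 gene names into dates in 7 of the 8 tables, none of them a collagen, and tables were joined by row.

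CPM is the count divided by the column sum, times 1000000. Genes with a mean CPM of 0.5 or more (15088 of 17700) were fitted together with edgeR 4.0.16 (R 4.3.3; TMM, quasi-likelihood with robust dispersions, age and sex as terms). Benjamini-Hochberg adjustment ran over all of them, and adjusted p-values under 0.05 were called. The sign of a log2 fold change is old minus young (or female minus male), and the SE is the log2 fold change over the root of F. For log2 CPM a prior count of 2 was added. The series' design text calls the samples biological replicates. Alternatives used DESeq2 1.42.0, limma 3.58.1, other filters and scalings, covariates and left-out libraries. The scripts were tested on simulated data. Coordinates and exon lengths are from GENCODE M21 (GRCm38) and upstream sequences from RefSeq (GRCm38.p6).

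The members, classes and gene lists were chosen with earlier results of these data known. Values in all libraries are given for the 4 most abundant members of each class, the 8 with the smallest p for age, and members whose ages do not overlap. The rule takes up to 4 genes of each pathway list by p, and the 3 most abundant of each cell type list with those that had no count; 1 gene it names is not reported here.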

Additional observations from a re-analysis of the deposited data

Results flagged for a closer look

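Of 90 groups of 4 libraries examined for a single value standing apart by Dixon's criterion, 3 exceeded it, where chance gives about 1 in 20. Col19a1, the neuronal FACIT collagen, was at 26.5 CPM in young mouse 4, against 18.8 to 19.3 CPM in the other young mice. Col9a2, a type IX chain, was at 19.9 CPM in old mouse 1, against 16.5 to 16.9 CPM in the other old mice. The collagens other than fibrillar and basement membrane ones summed to 171 CPM in old mouse 3, against 263 to 274 CPM in the other old mice.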

How the results depend on the processing

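The count of 0 collagens called for age held under every alternative tried for it except 3: it was 3 with the meningeal score, 1 without old mice 2 and 3 and young mouse 4, and 1 with the granule neuron score. The count over all genes, 28, was 121 by DESeq2, 1 by limma-voom, 18 with no filter, 17 with filterByExpr at 10 counts, 11 at a minimum mean of 2 CPM, 110 with age in weeks, 151 with the meningeal score, 0 with the choroid plexus score, 181 without the 3 libraries, 146 with the granule neuron score, and 0 to 60 when each library was left out. With a replicate block it was 1, with 0 collagens. Old and young mice of the same number share only that number and, for mice 1 and 4, their sex. Their deviations correlated at 0.13, -0.20, -0.04 and -0.23, and young mouse 1 alone correlated best with its own number. For sex, leaving out libraries gave 4 to 51 genes. For the interaction it gave 0 to 2, and DESeq2 gave 1. Given the meningeal score, DESeq2, limma-voom and no term for sex each called 1 collagen and left-out libraries 0 to 5, and over all genes no term for sex gave 71 and left-out libraries 21 to 447. The log2 ratio of the basement membrane sum was 0.02, and 0.16 without Col18a1. The granule neuron score and the variants of the meningeal model were chosen after seeing the data, and the cause of these shifts was not tested.

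Over 22 settings 23 of 42 collagens kept their direction wherever they were tested and 19 changed it in at least 1. Over the 21 planned ones 17 changed it, since Col5a2 and Col6a6 did so with the granule neuron score alone. The changed log2 fold changes were, with the granule neuron score Col19a1 at 0.019, Col5a2 at -0.011, Col6a3 at -0.17, Col15a1 at -0.049, Col16a1 at -0.13, Col26a1 at -0.13, Col6a6 at -0.029 and Col6a1 at -0.30; with the meningeal score Col6a3 at -0.011 and Col6a1 at -0.16; with the choroid plexus score Col9a3 at -0.19, Col16a1 at -0.0046 and Col6a1 at -0.02; with old mice 2 and 3 and young mouse 4 left out Col9a3 at -0.16, Col25a1 at 0.17, Col4a2 at 0.10, Col6a4 at -0.056, Col7a1 at -0.053, Col2a1 at 0.072 and Col11a2 at 0.036; with limma-voom Col11a1 at 0.14, Col24a1 at 0.014, Col5a3 at -0.061 and Col6a4 at -0.044; with a minimum mean of 2 CPM Col11a1 at 0.0097 and Col4a2 at 0.0009; with age in weeks (per 70 weeks) Col25a1 at 0.029, Col24a1 at 0.0087 and Col4a2 at 0.028; with DESeq2 Col6a1 at -0.0021. With libraries left out the ranges were Col19a1 -0.18 to 0.018, Col6a3 -0.41 to 0.51, Col9a3 -0.20 to 0.18, Col11a1 -0.34 to 0.24, Col25a1 -0.45 to 0.27, Col24a1 -0.34 to 0.39, Col15a1 -0.037 to 0.58, Col16a1 -0.067 to 0.30, Col26a1 -0.089 to 0.49, Col4a2 -0.14 to 0.10, Col5a3 -0.10 to 0.29, Col6a4 -0.16 to 0.42, Col7a1 -0.013 to 0.18, Col6a1 -0.27 to 0.41, Col1a1 -0.75 to 0.14, Col2a1 -0.36 to 0.027 and Col11a2 -0.20 to 0.12.

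With 4 mice per age, standard errors of collagens ran up to 0.82 on the log2 scale, and genes with few counts, such as Col9a1, are limited by depth as well.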
